A study of Mus musculus with 20 samples.

Results

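The genes described here are 45 regulators of chromatin, out of 23432 gene symbols counted in mouse embryonic skin. They were picked by name, but with earlier results of these data known, so the shares of called genes below are not those of a blind choice. The list holds 11 genes of the CHD and NuRD families, 2 ISWI remodellers, 12 BAF genes, 12 Polycomb genes, 7 histone deacetylases and Satb1. All 45 were found in every count file. RNA was sequenced from sorted cells of embryonic back skin in 4 groups of 3 libraries. KO epidermis at embryonic day 13 (E13) came from embryos labelled {delta}Np63 -GFP KI-KO. Het epidermis at E13, Het epidermis at E9 and Het dermis at E13 came from embryos labelled {delta}Np63 -GFP KI-Het, so every group carried the GFP knock-in, also the dermal libraries, whose titles call them controls. Epidermal cells of all 3 epidermal groups were sorted for GFP, which is driven from the delta-N unit of Trp63, so KO epidermal cells are those in which that unit was active. An antibody to CD140a, which Pdgfra encodes, was used to sort the dermal cells. Ribosomal RNA was removed from the epidermal RNA, whereas dermal RNA was selected with oligo(dT). The labels do not say that libraries came from separate embryos, so that p-values measure only the spread between these libraries, which may be technical.

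Chromatin remodellers are ATP-driven machines that slide, eject or exchange nucleosomes. The BAF complex holds 1 of 2 alternative ATPases, Smarca4 or Smarca2, and a set of subunits that come in interchangeable forms. NuRD couples a remodeller of the CHD family, Chd3 or Chd4, to histone deacetylases. Polycomb complexes silence genes: PRC2 methylates histone H3 through Ezh1 or Ezh2, and PRC1 binds that mark through a chromodomain protein of the Cbx family. In developing epidermis, p63 is known as the master regulator of the lineage, and Satb1 and Smarca4 have been described in mouse skin as genes that act downstream of it. Ezh2 is known to hold back epidermal differentiation genes, and Hdac1 and Hdac2 are known to be required for the growth of the epidermis.

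Epidermal libraries held 3373819 to 7777808 gene counts each, of which 0.881% to 1.30% fell on the 45 genes. Dermal libraries held 16931664 to 33386872, with 0.416% to 0.627% on the 45 genes. The ribosomal RNA gene Rn45s took 11.2%, 30.7% and 19.1% of the gene counts in the dermal libraries, against 2.90% to 9.69% in the epidermal libraries. These counts are part of the library totals, and their effect on the dermal comparison was not tested. The 2 epidermal libraries with the fewest genes detected were E13 Het replicate 1 with 10765 and E13 KO replicate 3 with 11275, against 12642 to 16200 in the other epidermal libraries. Levels below are CPM, gene counts relative to the library total, with totals scaled by the TMM method. Trp63, the targeted gene, stood at 24.7, 26.6 and 22.5 CPM in KO epidermis, against 574, 654 and 493 CPM in Het epidermis at E13 and 301, 237 and 131 CPM at E9, which fits the labels. Summed over 14 keratinocyte genes, levels were 3998 to 5238 CPM in KO epidermis, 6432 to 8386 CPM in E13 Het epidermis and 3076 to 3166 CPM in E9 Het epidermis. On the scale of the dermal comparison the same sum was 5614 to 7130 CPM in E13 Het epidermis and 77.8 to 85.9 CPM in dermis. Changes are log2 fold changes ± standard error. A gene is called higher or lower where its adjusted p from edgeR's quasi-likelihood test, over all genes tested, is under 0.05.

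Loss of delta-N p63 was examined first, in KO against Het epidermis at E13. Hdac9 was higher in KO epidermis, and none of the other 44 genes passed the test. No CHD, NuRD, ISWI, BAF or Polycomb gene was called, and neither was Satb1. The 1 call among 45 genes is a share of 2.22%, close to the 2.2% called among the 13052 genes tested, and calls in the higher direction made up 0.835% of the genes tested. The median log2 fold change of the 45 genes was -0.07, against 0.03 for all genes tested. For 11 of the 45 the KO and Het libraries did not overlap, a share of 24.4%, against 20% of all genes tested. KO lay above Het for 4 of these and below for 7, against 10.3% and 9.78% of all genes. In bulk RNA, fewer cells of a type and less RNA per cell cannot be told apart, here and in every comparison below.

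Hdac9 encodes a class IIa deacetylase, a group of large deacetylases that shuttle between nucleus and cytoplasm and bind MEF2 transcription factors. It stood at 30.4, 52.8 and 10.5 CPM in KO epidermis, against 0, 2.25 and 0.554 CPM in Het epidermis. Every KO library lay above every Het library, but the KO libraries themselves spread widely. The Het values rest on 0, 17 and 3 counts. The means were 31.2 ± 21.2 CPM in KO and 0.933 ± 1.17 CPM in Het epidermis (SD, n = 3 each), a log2 fold change of 4.93 ± 1.06 (adjusted p = 0.0251, 95% interval 2.65 to 7.21). The call ended when Het replicate 3, KO replicate 1 or KO replicate 2 was left out (adjusted p = 0.0551, 0.0865 and 0.168), and in a fit of the 6 compared libraries alone (adjusted p = 0.0553). Hdac9 was also measured at 5.20, 16.3 and 9.89 CPM in E9 Het epidermis. In E13 Het dermis it was at 20.1, 19.4 and 22.3 CPM, on the separate scale of the dermal comparison. On that scale E13 Het epidermis had 0, 1.96 and 0.471 CPM, so the dermal values are not set against those of KO epidermis. Summed levels of markers of other cell types also differed between the groups. The 10 neuronal and neural tube genes summed to 129.0, 184 and 65.2 CPM in the KO libraries, against 1.998, 34.6 and 26.0 CPM in the Het libraries, and 1 of the 8 tested, Map2, was called higher. Neurog2 was at 0 in every KO library. The 10 genes of dermal mesenchyme summed to 1052, 2160 and 1248 CPM in the KO libraries, against 313, 1390 and 286 CPM in the Het libraries, and none of the 9 tested was called. The part of these cells in the Hdac9 result was not tested.

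The promoter of Hdac9 is shown because it is the promoter of the 1 gene called in this comparison. RefSeq lists it on chromosome 12 of GRCm38.p6, at chr12:34917046-34917345 on the minus strand, from 250 bases before to 50 bases after the more upstream of 2 listed starts:
Hdac9: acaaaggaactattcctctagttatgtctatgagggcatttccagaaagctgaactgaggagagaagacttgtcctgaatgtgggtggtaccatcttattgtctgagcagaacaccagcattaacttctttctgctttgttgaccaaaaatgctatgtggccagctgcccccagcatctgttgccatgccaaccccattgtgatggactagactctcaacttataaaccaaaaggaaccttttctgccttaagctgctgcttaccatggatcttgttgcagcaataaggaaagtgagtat
It has 44% G and C and 0 CpG dinucleotides. Motifs were searched on both strands: the GC box GGGCGG, the CCAAT box CCAAT, and a pair of CATG cores 6 bases apart, of the kind that p53-family proteins bind. None is in this window. Of 32851 RefSeq mouse promoters of the same length, 35.66% hold GGGCGG, 37.41% hold CCAAT and 0.7123% hold the paired CATG cores. Of the 45 genes, 35 have a promoter entry, with 46 promoters in all. GGGCGG is in 33 of the 46, CCAAT in 14 and the paired CATG cores in 0.

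The remaining deacetylases had log2 fold changes from -0.27 in Hdac4 to 0.39 in Hdac5, with no adjusted p under 0.522. Among the class I enzymes, which form the catalytic core of the NuRD and Sin3 complexes (Hdac1, Hdac2) and of the NCoR complex (Hdac3), Hdac1 averaged 262 ± 19.7 CPM in KO and 216 ± 27.2 CPM in Het epidermis, Hdac2 286 ± 17.2 CPM in KO and 272 ± 32.6 CPM in Het epidermis, and Hdac3 85.8 ± 1.23 CPM in KO and 89.1 ± 3.09 CPM in Het epidermis (SD, n = 3 each). Those groups overlapped for all 3 genes.

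Of the CHD and NuRD genes, Mta2 came nearest to a call. Mta2 is a scaffold subunit of NuRD, and it stood at 179.5, 166 and 180.4 CPM in KO epidermis, against 464, 294 and 239 CPM in Het epidermis. All KO libraries lay below all Het libraries, with Het replicate 1 far above the other two. The log2 fold change was -0.92 ± 0.25 (adjusted p = 0.0879). It was called lower by DESeq2 (adjusted p = 0.0214), without a filter on low counts (adjusted p = 0.0228) and without Het replicate 3 (adjusted p = 0.0224), and had a log2 fold change of -0.64 (adjusted p = 0.404) when the 2 libraries with the fewest genes detected were left out. Chd3 and Chd4, the alternative remodellers of NuRD, had log2 fold changes of 0.08 (95% interval -0.22 to 0.39) and 0.03 (95% interval -0.24 to 0.30). The 6 CHD genes outside NuRD ranged from -0.50 to 0.29.

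The ISWI ATPase Smarca1 stood at 83.7, 97.4 and 83.7 CPM in KO epidermis, against 48.9, 58.8 and 55.4 CPM in Het epidermis. The groups did not overlap, with KO above Het, but the log2 fold change of 0.70 ± 0.24 did not pass (adjusted p = 0.205). Smarca5, the other ISWI ATPase, had -0.07 ± 0.14 (95% interval -0.37 to 0.23).

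The BAF ATPases did not pass the test either. Smarca4, also known as Brg1, averaged 639 ± 62.2 CPM in KO and 785 ± 127 CPM in Het epidermis (SD, n = 3 each), a log2 fold change of -0.30 ± 0.14 with a 95% interval of -0.61 to 0.01 (adjusted p = 0.466). Smarca2, also known as Brm, had 0.26 ± 0.31 (95% interval -0.42 to 0.95). Among the 3 ARID subunits, which help to direct the complex to DNA, Arid1b had the smallest p. It stood at 316, 282 and 276 CPM in KO epidermis, against 427, 398 and 387 CPM in Het epidermis. The groups did not overlap, with KO below Het, at a log2 fold change of -0.47 ± 0.16 (adjusted p = 0.194). KO libraries lay below Het libraries without overlap for Arid1a and Arid2 as well, at -0.33 (adjusted p = 0.259) and -0.18 (adjusted p = 0.713). Among the 12 BAF genes KO lay below Het without overlap for 3 and above for 2, or 41.7% in all. Of all genes tested, 9.78% lay below and 10.3% above, or 20% in all. Over all 12 BAF genes the log2 fold changes ran from -0.47 in Arid1b to 1.07 in Smarcd3, a BAF60 form that was low in all epidermal libraries.

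Of the 12 Polycomb genes, Cbx2, a chromodomain subunit of PRC1, had the smallest p. Its levels were 84.8, 71.9 and 71.1 CPM in KO epidermis, against 117, 98.7 and 103 CPM in Het epidermis. KO libraries lay below Het libraries, at a log2 fold change of -0.48 ± 0.20 (adjusted p = 0.34). The PRC2 core genes Ezh1, Ezh2, Eed and Suz12 ranged from -0.05 to 0.26. For Ezh2, the main H3K27 methyltransferase of cycling cells, the groups overlapped and the 95% interval was wide, -0.68 to 0.58. Ring1, Cbx7 and Cbx8 were low, with 0 CPM in at least 1 E13 epidermal library each and at most 15.9 CPM in any of the 6, and none of them was called. Cbx8 and Ring1 set the range of the 12, at -0.63 and 0.90.

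Satb1, an organiser of chromatin loops, stood at 386, 416 and 406 CPM in KO epidermis, against 499, 489 and 385 CPM in Het epidermis. The groups overlapped. The log2 fold change was -0.18 ± 0.24, with a 95% interval of -0.71 to 0.34 (adjusted p = 0.888).

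**Figure D1:**
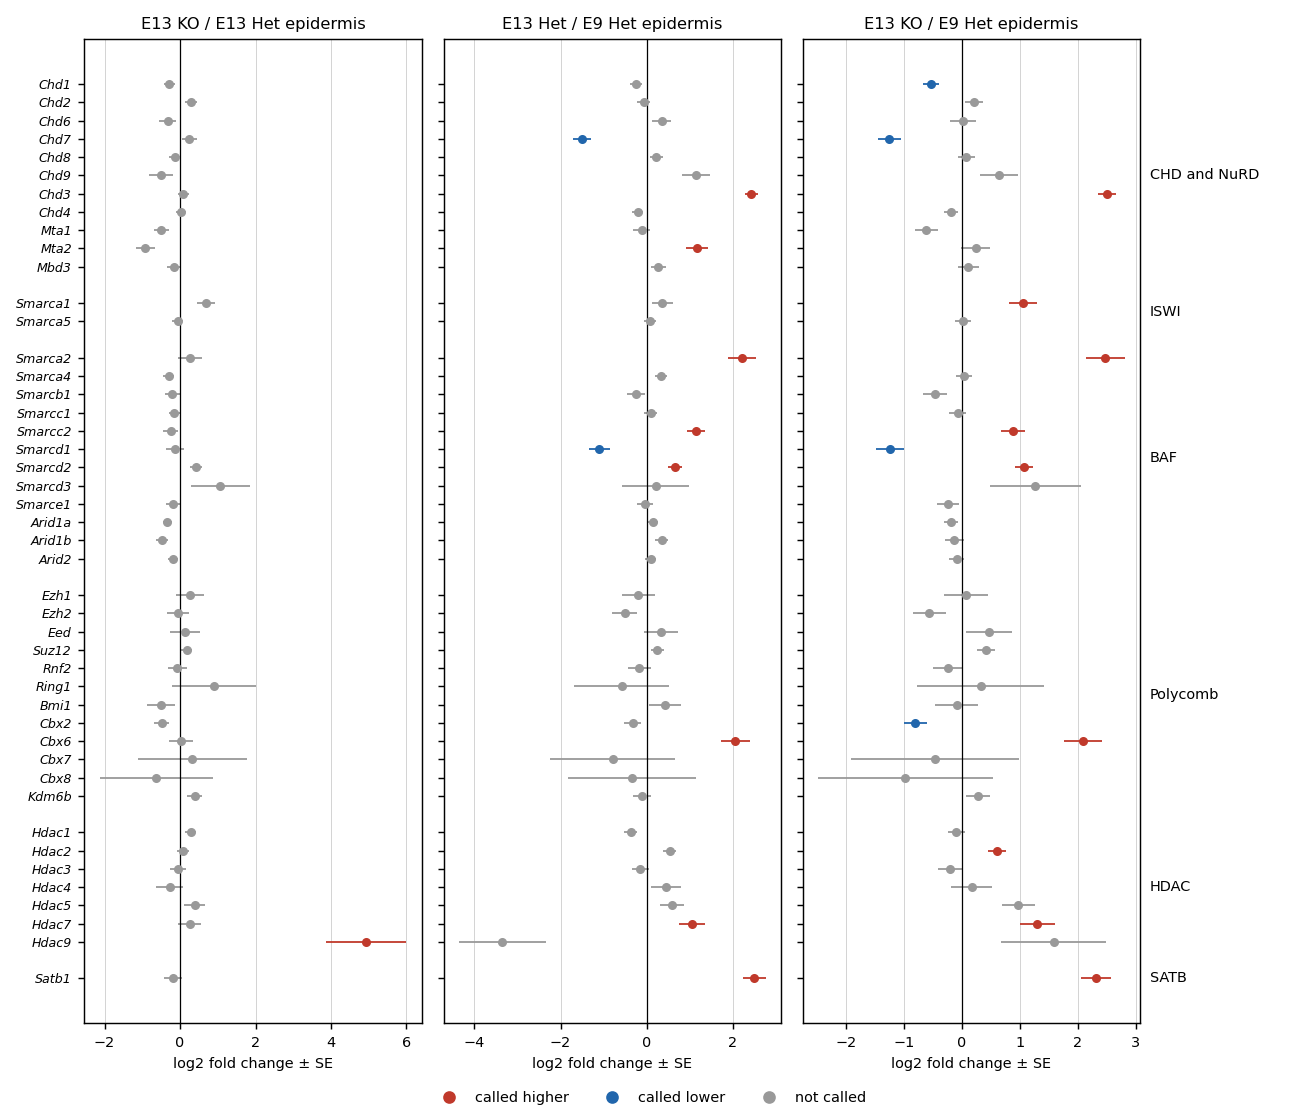
Log2 fold change ± standard error of the 45 genes in the 3 epidermal comparisons, by complex, each point 1 gene from 3 libraries a group; red and blue mark called genes. In KO against Het only Hdac9 is called, whereas Chd3, Smarca2, Cbx6 and Satb1 lie above 2 in both comparisons with E9.

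Beyond the 45, a list of 69 further genes of the same complexes was drawn up, of which 68 could be tested in epidermis. Unlike calls among the 45, their calls here and below were not followed when a library was left out or in other fits. In KO against Het epidermis 0 of them were higher and 1 was lower, 1.47% against 2.2% of all genes. That gene is Cecr2, a bromodomain partner of ISWI known in mouse for its part in closing the neural tube. It stood at 32.01, 36.97 and 46.7 CPM in KO epidermis, against 143, 103 and 65.2 CPM in Het epidermis. The groups did not overlap, and the log2 fold change was -1.43 ± 0.27 (adjusted p = 0.00939).

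The age of the epidermis was examined next, with KO and Het epidermis at E13 each set against Het epidermis at E9. Many more of the 45 genes differed. In Het epidermis 8 were higher and 2 lower at E13, and in KO epidermis 9 were higher and 4 lower. Satb1, Chd3, Smarca2 and Cbx6 were more than 4-fold higher in either E13 group, and Chd7 and Smarcd1 were more than 2-fold lower. The 10 calls in Het epidermis are 22.2% of the 45, against 7.29% of all genes tested (4.77% higher, 2.53% lower). The 13 calls in KO epidermis are 28.9%, against 7.67% (4.62% higher, 3.05% lower). The median log2 fold change over the 45 was 0.14 in Het epidermis, against -0.002 for all genes, and 0.07 in KO epidermis, against 0.01 for all genes. For 18 of the 45 the libraries did not overlap in each comparison, a share of 40%, against 29% of all genes for Het and 31.9% for KO. The 2 comparisons share the E9 libraries, so their values are given side by side and are not independent of each other, and the test of their difference is the KO against Het comparison above. Summed levels of other lists differed with age as well. The 8 skeletal muscle genes stood at 1.71 to 34.4 CPM summed in KO, 0.250 to 11.2 CPM in E13 Het and 41.8 to 275 CPM in E9 Het epidermis. The 10 genes of S phase and mitosis stood at 2811 to 3498 CPM in KO, 3464 to 4411 CPM in E13 Het and 4062 to 4386 CPM in E9 Het epidermis. None of the 4 muscle genes tested was called in either comparison, with Myod1 and Myog at 0 in every E9 library, and of the 10 cell cycle genes 4 were lower in KO and 2 in Het epidermis. The neuronal sum was 76.8 to 103 CPM in E9 Het epidermis. Dermal mesenchyme genes summed to 1052 to 2160 CPM in KO, 286 to 1390 CPM in E13 Het and 194 to 260 CPM in E9 Het epidermis, without overlap between ages, and of the 9 tested 2 were higher in KO and 1 in Het epidermis. The 7 macrophage and leukocyte genes summed to 6.54 to 46.8 CPM in KO, 41.2 to 53.0 CPM in E13 Het and 4.59 to 9.65 CPM in E9 Het epidermis, and of the 2 tested 1 was higher in Het and none in KO epidermis. Their part in the results below was not tested.

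Chd3, a remodeller of NuRD, had the smallest adjusted p of the 45 genes in both comparisons. It stood at 1535, 1441 and 1466 CPM in KO and 1652, 1383 and 1156 CPM in Het epidermis at E13, against 303, 251 and 229.8 CPM at E9. Every E13 library was far above every E9 library. The log2 fold changes were 2.50 ± 0.15 in KO (adjusted p = 1.94e-07) and 2.42 ± 0.15 in Het epidermis (adjusted p = 2.62e-07). Its alternative Chd4 averaged 990.2 ± 34.6 CPM in KO, 969 ± 111 CPM in E13 Het and 1126 ± 128 CPM in E9 Het epidermis (SD, n = 3 each), with log2 fold changes of -0.19 and -0.22 that did not pass. Chd7, a remodeller of enhancers whose human orthologue is mutated in CHARGE syndrome, moved the other way. It stood at 149, 188 and 140.0 CPM in KO and 95.6, 148 and 158 CPM in Het epidermis at E13, against 384, 339 and 418 CPM at E9. The E9 libraries lay above all others, and the log2 fold changes were -1.26 ± 0.20 in KO (adjusted p = 0.00124) and -1.50 ± 0.20 in Het epidermis (adjusted p = 0.00029).

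Mta2, described above, stood at 175, 172 and 99.2 CPM in E9 Het epidermis. E13 Het libraries lay above this and KO libraries overlapped it, with log2 fold changes of 0.24 ± 0.25 in KO (adjusted p = 0.689) and 1.16 ± 0.25 in Het epidermis (adjusted p = 0.0124). The difference between them did not pass (adjusted p = 0.0879). Chd1, a remodeller that travels with elongating RNA polymerase, stood at 259.6, 267 and 276 CPM in KO and 324, 365 and 286 CPM in Het epidermis at E13, against 383, 368 and 418 CPM at E9. All E13 libraries lay below all E9 libraries. Only the KO comparison passed, at -0.54 ± 0.14 (adjusted p = 0.0266), and Het epidermis had -0.26 ± 0.14 (adjusted p = 0.333). The Chd1 call was lost in 5 of the 6 fits that left out 1 library, those without any 1 of E9 Het replicates 1, 2 and 4 or KO replicates 1 and 2, at log2 fold changes from -0.58 to -0.49. Whether the KO and Het changes differ did not pass either (adjusted p = 0.474).

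Of the 12 BAF genes 3 were higher and 1 lower in each comparison. That is 33.3%, against 7.67% of all genes in KO and 7.29% in Het epidermis. The ATPase Smarca2 stood at 233, 259 and 191 CPM in KO and 223, 191 and 155 CPM in Het epidermis at E13, against 66.7, 32.8 and 22.5 CPM at E9. Both E13 groups lay above E9 without overlap, with log2 fold changes of 2.47 ± 0.33 in KO (adjusted p = 0.000647) and 2.21 ± 0.33 in Het epidermis (adjusted p = 0.00121). The alternative ATPase Smarca4 had 0.04 (95% interval -0.27 to 0.34) and 0.33 (95% interval 0.02 to 0.64), neither called. The Smarca2 locus overlaps the counted gene 4931403E22Rik, and since no source used here gives the strand setting of the counting, reads of the 2 genes may have been shared.

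Smarcd1 and Smarcd2 encode alternative forms of the BAF60 subunit, which links the complex to transcription factors. Smarcd1 stood at 69.7, 94.5 and 59.8 CPM in KO and 58.4, 107 and 81.3 CPM in Het epidermis at E13, against 176, 173 and 184 CPM at E9. Smarcd2 stood at 261, 219 and 213 CPM in KO and 177, 158 and 185 CPM in Het epidermis at E13, against 113, 106 and 111 CPM at E9. For Smarcd1 all E13 libraries were below E9 and for Smarcd2 all were above it. Smarcd1 had log2 fold changes of -1.25 ± 0.24 in KO (adjusted p = 0.00539) and -1.11 ± 0.24 in Het epidermis (adjusted p = 0.0114). Smarcd2 had 1.07 ± 0.16 in KO (adjusted p = 0.000881) and 0.65 ± 0.16 in Het epidermis (adjusted p = 0.0233). The call of Smarcd2 in Het epidermis was lost in 5 of the 6 fits that left out 1 library, all but that without E13 Het replicate 2, at log2 fold changes from 0.57 to 0.66. The third form, Smarcd3, was low, at 2.23 to 30.1 CPM in the 9 epidermal libraries, and was not called. Its log2 fold change was 1.27 in KO epidermis, with all KO libraries above E9, and 0.20 in Het epidermis, where the libraries overlapped.

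Smarcc2, a scaffold subunit also known as BAF170, stood at 276, 320.1 and 219.9 CPM in KO and 349.6, 341 and 282 CPM in Het epidermis at E13, against 187, 149 and 107 CPM at E9. E13 lay above E9 without overlap. The log2 fold changes were 0.88 ± 0.20 in KO (adjusted p = 0.0161) and 1.13 ± 0.21 in Het epidermis (adjusted p = 0.00312), and the KO call was lost without any 1 of E9 Het replicates 2 and 4 or KO replicates 1 and 2, at 0.70 to 0.89. Its partner Smarcc1, or BAF155, had -0.07 and 0.09, not called. The ARID subunits were not called either and ranged from -0.19 to -0.09 in KO and from 0.09 to 0.34 in Het epidermis. The remaining BAF genes ran from Smarcb1, a core subunit, at -0.46 in KO and -0.25 in Het epidermis, upwards, with no adjusted p under 0.21.

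Promoters of 4 of these genes are shown from RefSeq, GRCm38.p6: 3 whose genes were higher at E13 and Smarcd1, which was lower. Each runs from 250 bases before to 50 bases after the most upstream listed start, with GGGCGG or CCAAT matches on either strand in capitals. Smarca2 lies at chr19:26604910-26605209 on the plus strand, Smarcd2 at chr11:106267583-106267882 on the minus strand, Satb1 at chr17:51833241-51833540 on the minus strand and Smarcd1 at chr15:99702037-99702336 on the plus strand.
Smarca2: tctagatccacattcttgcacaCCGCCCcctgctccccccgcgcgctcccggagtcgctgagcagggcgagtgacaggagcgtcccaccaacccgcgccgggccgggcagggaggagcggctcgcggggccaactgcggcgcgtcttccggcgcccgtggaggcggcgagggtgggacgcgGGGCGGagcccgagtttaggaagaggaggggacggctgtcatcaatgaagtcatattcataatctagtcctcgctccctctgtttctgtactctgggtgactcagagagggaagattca
Smarcd2: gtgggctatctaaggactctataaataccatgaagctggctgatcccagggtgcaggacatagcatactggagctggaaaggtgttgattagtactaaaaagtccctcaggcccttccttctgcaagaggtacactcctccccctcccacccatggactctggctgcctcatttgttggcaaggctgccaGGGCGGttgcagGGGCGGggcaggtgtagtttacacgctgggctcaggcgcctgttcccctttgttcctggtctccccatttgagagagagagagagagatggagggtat
Satb1: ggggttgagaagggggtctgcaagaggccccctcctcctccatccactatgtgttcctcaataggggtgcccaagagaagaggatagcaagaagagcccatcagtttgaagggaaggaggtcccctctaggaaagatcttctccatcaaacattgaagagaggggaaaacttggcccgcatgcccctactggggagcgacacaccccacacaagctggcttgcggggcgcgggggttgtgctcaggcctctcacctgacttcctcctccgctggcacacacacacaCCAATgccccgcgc
Smarcd1: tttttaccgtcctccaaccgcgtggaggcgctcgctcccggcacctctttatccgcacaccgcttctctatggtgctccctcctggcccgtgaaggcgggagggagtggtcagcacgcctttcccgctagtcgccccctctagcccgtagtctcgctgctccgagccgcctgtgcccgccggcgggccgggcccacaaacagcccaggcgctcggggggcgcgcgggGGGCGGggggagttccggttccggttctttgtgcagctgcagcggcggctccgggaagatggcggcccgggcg
Smarca2 holds 2 GC boxes and 29 CpG dinucleotides, Smarcd2 2 GC boxes and 4 CpG, Satb1 1 CCAAT box and 8 CpG, and Smarcd1 1 GC box and 35 CpG. No 2 motifs overlap, and the paired CATG cores are in none of these windows. The Smarcd2 window surrounds the only start listed for it, which lies inside the gene's span of chr11:106263171-106272998 and not at its upstream end. The Smarcd1 window holds the upstream end of its gene. Their CpG numbers therefore come from unlike places in the 2 genes and are not compared. Matches here are descriptions of letters, not of bound sites.

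The ISWI ATPase Smarca1 stood at 35.3, 46.4 and 45.8 CPM in E9 Het epidermis, below every E13 library. It was called in KO epidermis, at 1.06 ± 0.24 (adjusted p = 0.0143), and Het epidermis had 0.36 ± 0.24 (adjusted p = 0.475). The KO call was lost without E9 Het replicate 1, KO replicate 1 or KO replicate 2, at 0.92 to 1.08. The difference between KO and Het epidermis did not pass, as given above. Smarca5 had 0.01 in KO and 0.08 in Het epidermis.

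Of the 12 Polycomb genes 1 was higher and 1 lower in KO epidermis, or 16.7%, against 7.67% of all genes. In Het epidermis 1 was higher, or 8.33%, close to the 7.29% called among all genes. The genes called, Cbx6 and Cbx2, are chromodomain genes of PRC1. Cbx6 stood at 165, 128 and 183 CPM in KO and 203, 119 and 142 CPM in Het epidermis at E13, against 41.6, 51.5 and 18.3 CPM at E9. All E13 libraries were above E9, with log2 fold changes of 2.09 ± 0.33 in KO (adjusted p = 0.00164) and 2.05 ± 0.33 in Het epidermis (adjusted p = 0.00178). The Cbx6 locus overlaps the counted gene Npcd. Cbx2 stood at 111, 137 and 152 CPM at E9, above all KO libraries and overlapping Het. It was lower in KO epidermis, at -0.81 ± 0.20 (adjusted p = 0.0221), and Het epidermis had -0.33 ± 0.20 (adjusted p = 0.414). The KO call was lost without any 1 of E9 Het replicates 2 and 4 or KO replicates 2 and 3, at -0.78 to -0.70. No PRC2 or PRC1 core gene was called. Ezh2 averaged 121 ± 41.3 CPM in KO, 126 ± 49.9 CPM in E13 Het and 179 ± 34.4 CPM in E9 Het epidermis (SD, n = 3 each), with 95% intervals of the log2 fold change of -1.19 to 0.07 for KO and -1.14 to 0.12 for Het. Kdm6b, a demethylase that removes the PRC2 mark, had log2 fold changes of 0.28 in KO and -0.11 in Het epidermis, not called.

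Among the deacetylases, Hdac7, a class IIa enzyme, stood at 91.96, 74.5 and 118 CPM in KO and 103, 64.9 and 71.1 CPM in Het epidermis at E13, against 26.3, 51.9 and 37.1 CPM at E9. E13 lay above E9 without overlap. The log2 fold changes were 1.30 ± 0.30 in KO (adjusted p = 0.0161) and 1.05 ± 0.30 in Het epidermis (adjusted p = 0.0497). The Het call was lost in all fits that left out 1 library except that without E9 Het replicate 2, at 0.81 to 1.18, and the KO call without any 1 of E9 Het replicates 1 and 4 or KO replicates 1 and 3, at 1.07 to 1.31. The Hdac7 locus overlaps the counted gene Slc48a1. Hdac2 stood at 266, 297 and 295 CPM in KO and 308, 264 and 244 CPM in Het epidermis at E13, against 189, 161 and 214 CPM at E9. E13 lay above E9 without overlap. KO epidermis had 0.61 ± 0.16 (adjusted p = 0.0289), a call lost in all fits that left out 1 library except that without E9 Het replicate 4, at 0.51 to 0.64. Het epidermis had 0.53 ± 0.16 (adjusted p = 0.0556). Hdac9 did not pass, at 1.58 ± 0.90 in KO (adjusted p = 0.358) and -3.35 ± 1.01 in Het epidermis (adjusted p = 0.0608).

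Satb1 stood at 110.5, 86.6 and 45.5 CPM in E9 Het epidermis, far below every E13 library given above. It was 4.96-fold higher in KO epidermis, a log2 fold change of 2.31 ± 0.26 (adjusted p = 0.000114), and 5.64-fold higher in Het epidermis, at 2.49 ± 0.26 (adjusted p = 5.53e-05). Calls of Chd3, Chd7, Smarca2, Smarcd1, Cbx6 and Satb1 in both comparisons, of Mta2 and Smarcc2 in Het and of Smarcd2 in KO epidermis held in every fit that dropped 1 library of these groups. Without KO replicate 1, and also without KO replicate 2, 8 of the 13 calls in KO epidermis were left.

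**Figure D2:**
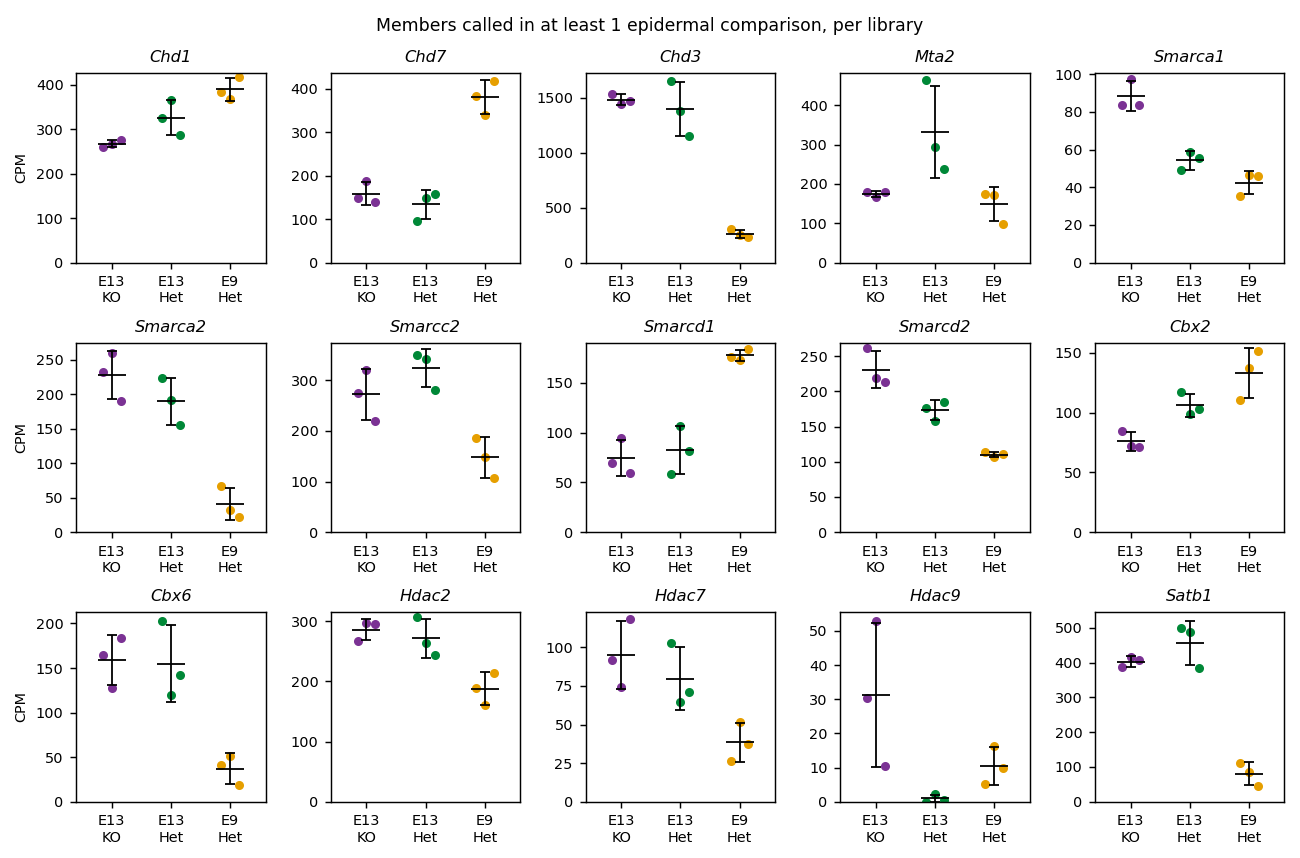
CPM of the 15 genes called in at least 1 epidermal comparison, per library (points), with mean ± SD (lines) of 3 libraries, for E13 KO, E13 Het and E9 Het epidermis. For Chd3 and Satb1 the E9 libraries lie below all E13 libraries and for Chd7 and Smarcd1 above them, while Hdac9 is near 0 in E13 Het epidermis.

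Of the 68 further genes tested, 3 were higher and 3 lower in KO epidermis at E13 than in Het epidermis at E9, 8.82% against 7.67% of all genes, and 2 were higher and 1 lower in Het epidermis, 4.41% against 7.29% of all genes. Kdm2b, which recruits a variant PRC1 to CpG islands, stood at 90.5, 91.4 and 56.3 CPM in KO and 115, 101 and 81.1 CPM in Het epidermis at E13, against 178, 185 and 219 CPM at E9. It was below E9 in every E13 library, at -1.28 ± 0.22 in KO (adjusted p = 0.00232) and -0.97 ± 0.22 in Het epidermis (adjusted p = 0.0145). Cecr2 stood at 168, 167 and 167 CPM at E9 and was lower in KO epidermis, at -2.12 ± 0.27 (adjusted p = 0.00022), with -0.69 ± 0.26 in Het epidermis (adjusted p = 0.14). Ss18, a BAF subunit, had 218, 166 and 171 CPM in Het epidermis at E13, against 116, 133 and 99.2 CPM at E9, and was higher at 0.67 ± 0.18 (adjusted p = 0.0367).

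Epidermis was last set against dermis, both Het and at E13. Most CHD and NuRD genes and the ARID subunits of BAF were higher in epidermis, with Satb1 more than 60-fold higher. Smarca1, Smarca2, Hdac3, Hdac5, Hdac9 and the PRC1 ligase Rnf2 were lower in epidermis. Of 44 genes tested 18 were higher and 6 lower, 54.5% in all, against 34.7% of the 12975 genes tested (16.5% higher, 18.2% lower). Cbx7 had too few counts to be tested. The median log2 fold change was 0.38 over the 44, against -0.13 for all genes. The libraries did not overlap for 30 of the 44, or 68.2%, against 56.1% of all genes (24.5% higher and 31.6% lower in epidermis). Tissue and the way RNA was selected cannot be told apart here. Dermal mesenchyme genes summed to 243 to 1213 CPM in epidermis and to 29389 to 37151 CPM in dermis. Genes of S phase and mitosis summed to 2795 to 3850 CPM in epidermis and to 1812 to 2513 CPM in dermis, with 1 of the 10 called higher and 4 lower. The part of cell cycle genes in the results below was not tested. CPM in this comparison are scaled over these 6 libraries and so differ from those above. Without scaling of library totals the median of all genes moved to 0.30. Then called genes numbered 3156 higher and 1438 lower in epidermis, against 2140 higher and 2364 lower with scaling, and Smarca1, Smarca2, Hdac3, Hdac5 and Rnf2 were no longer called lower.

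Of 11 CHD and NuRD genes 7 were higher and 0 lower in epidermis, where 16.5% of all genes were higher and 18.2% lower. All 11 had log2 fold changes above 0. The run without scaling is no check of this, since it moved the median of all genes up, from -0.13 to 0.30. Chd4 stood at 822, 914 and 717 CPM in epidermis, against 347, 270.3 and 298 CPM in dermis. The groups lay far apart, at a log2 fold change of 1.42 ± 0.17 (adjusted p = 0.000568). Chd3 did not pass, with 1174 ± 177 CPM in epidermis and 819.5 ± 113 CPM in dermis (SD, n = 3 each) and 0.52 ± 0.18 (adjusted p = 0.0563). Chd7, Chd6, Chd1, Chd8, Chd2 and Mta2 were higher by 1.74, 1.43, 1.10, 1.06, 0.84 and 0.78 on the log2 scale. The Mta2 call was lost without epidermal replicate 1 or 2 or dermal replicate 2 or 3, and that of Chd2 without epidermal replicate 2 or dermal replicate 3.

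In BAF 6 of 12 genes were higher and 1, Smarca2, lower, against the same 16.5% and 18.2% of all genes. Smarca4 stood at 726, 705 and 552 CPM in epidermis, against 298, 231 and 254 CPM in dermis, and did not overlap, at 1.34 ± 0.18 (adjusted p = 0.000894). Smarcc1 stood at 726, 882 and 672 CPM in epidermis, against 219, 196 and 229 CPM in dermis, with 1.82 ± 0.17 (adjusted p = 0.000166). The ATPase and this scaffold were thus higher in every epidermal library. Arid1a stood at 665, 721 and 735 CPM in epidermis, against 286, 225 and 231 CPM in dermis, at 1.52 ± 0.16 (adjusted p = 0.000323). Arid1b, its alternative in the same complex, stood at 344, 347 and 329 CPM in epidermis, against 154, 118 and 141 CPM in dermis, at 1.31 ± 0.16 (adjusted p = 0.000615). Arid2, the ARID subunit of the related PBAF complex, stood at 294, 306 and 306 CPM in epidermis, against 144, 110.3 and 119 CPM in dermis, at 1.28 ± 0.16 (adjusted p = 0.000699). No epidermal library fell among the dermal ones for any of the 3. Smarcc2 was higher by 0.58 on the log2 scale, a call lost without the same 4 libraries as that of Mta2. Smarca2 averaged 159 ± 24.9 CPM in epidermis and 253 ± 31.2 CPM in dermis, at -0.67 ± 0.18 (adjusted p = 0.022), a call lost in 5 of the 6 fits that left out 1 library (all but that without epidermal replicate 1).

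Of the 11 Polycomb genes tested 2 were higher and 1 lower, against 16.5% and 18.2% of all genes. Cbx2 stood at 94.3, 86.1 and 87.3 CPM in epidermis, against 26.8, 24.9 and 22.8 CPM in dermis, without overlap, at 1.85 ± 0.20 (adjusted p = 0.000335). Suz12, a core subunit of PRC2, had 1.27 ± 0.18 (adjusted p = 0.00117), whereas the other PRC2 core genes Ezh1, Ezh2 and Eed were not called. The 8 genes tested and not called ranged from -0.94 to 0.75. Rnf2, the E3 ligase of PRC1, had -0.77 ± 0.20 (adjusted p = 0.0181), lost without epidermal replicate 3 or dermal replicate 2 or 3.

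Among deacetylases Hdac4 was higher, at 1.36 ± 0.33 (adjusted p = 0.0135), and its class IIa relatives Hdac5 and Hdac9 were lower, at -0.94 ± 0.24 (adjusted p = 0.0188) and -4.56 ± 1.02 (adjusted p = 0.00988). Hdac3 had -0.49 ± 0.16 (adjusted p = 0.0455), a call lost whichever library was left out. The Hdac5 call was lost in 5 of the 6 such fits, all but that without epidermal replicate 1, and that of Hdac4 without epidermal replicate 2. The ISWI ATPases differed in direction. Smarca1 was lower in epidermis, at -1.02 ± 0.20 (adjusted p = 0.00612), and Smarca5 higher, at 0.78 ± 0.19 (adjusted p = 0.0153), a call lost without epidermal replicate 2 or dermal replicate 3.

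Satb1 had the smallest adjusted p of the 44. It stood at 403, 427 and 327 CPM in epidermis, against 8.97, 3.88 and 6.004 CPM in dermis. It was near absent from every dermal library, 60.7-fold higher in epidermis, at a log2 fold change of 5.92 ± 0.34 (adjusted p = 2.58e-05).

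**Figure D3:**
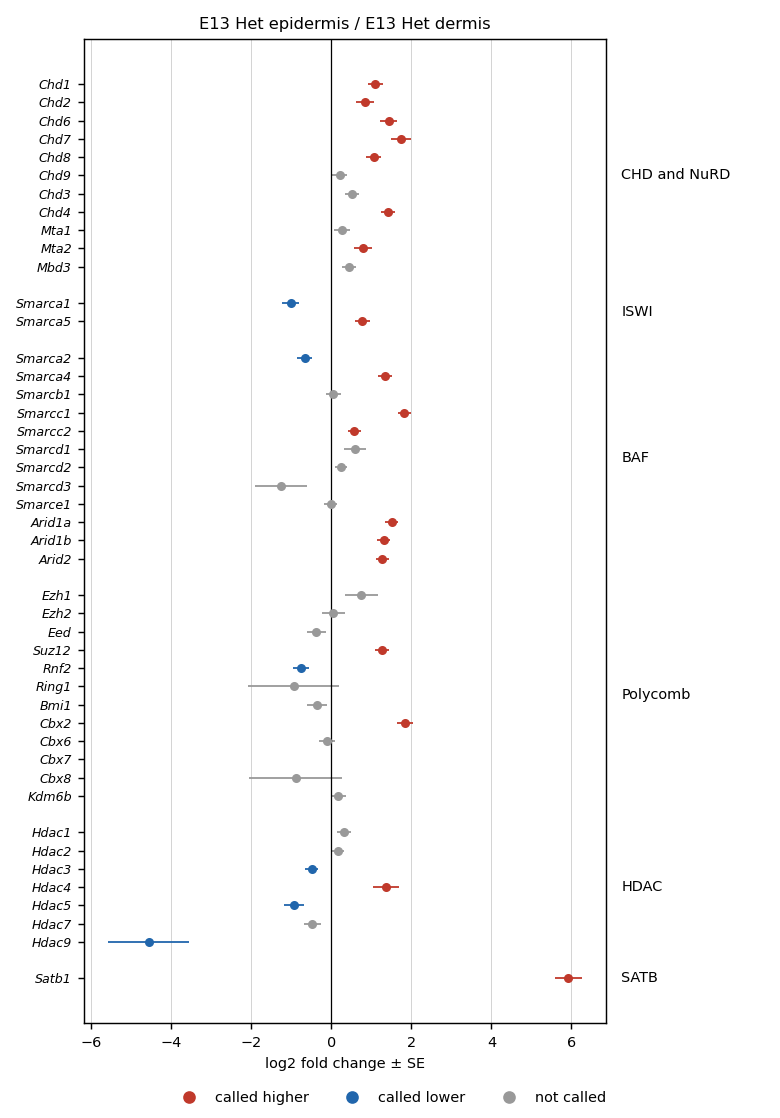
Log2 fold change ± standard error of E13 Het epidermis over E13 Het dermis for the 44 genes tested, by complex, 3 libraries a group; red and blue mark called genes. The CHD and NuRD genes all lie above 0, Satb1 is at 5.92 and Hdac9 at -4.56.

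Among the further genes of these complexes 67 were tested, of which 21 were higher and 3 lower in epidermis, 35.8% in all, close to the 34.7% called among all genes. The partners of ISWI held 7 of these 24 calls, out of 9 tested and all higher. Baz2a, the large subunit of the NoRC complex, stood at 258, 257 and 275 CPM in epidermis, against 67.4, 46.4 and 55.9 CPM in dermis, at 2.22 ± 0.18 (adjusted p = 1e-04). Bptf, the largest subunit of NURF, stood at 497, 530.5 and 496 CPM in epidermis, against 205, 165 and 162 CPM in dermis, at 1.52 ± 0.16 (adjusted p = 0.000302). Cecr2 stood at 115, 90.1 and 55.4 CPM in epidermis, against 6.70, 6.85 and 10.96 CPM in dermis, at 3.40 ± 0.36 (adjusted p = 0.000314). In none of the 3 did the groups overlap.

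Ratios between paired genes within a library do not depend on the library's total. Where dermis is set beside epidermis, tissue and the way RNA was selected cannot be told apart in these ratios either. The 8 pairs were chosen after their values were seen, and the ratios are descriptions with no test. Counts of Chd3 over Chd4 were 1.46 to 1.52 in KO epidermis, 1.32 to 1.62 in E13 Het epidermis, 0.206 to 0.258 in E9 Het epidermis and 2.41 to 2.95 in dermis. Chd3 thus had more counts than Chd4 in all libraries but those of E9. Counts are not corrected for gene length, so a ratio above 1 does not say which RNA was more abundant, and only its difference between groups is read. Smarcd2 over Smarcd1 was 2.32 to 3.75 in KO, 1.47 to 3.03 in E13 Het and 0.604 to 0.644 in E9 Het epidermis, and 2.58 to 2.77 in dermis. For Smarca2 over Smarca4 the ratios were 0.336 to 0.380 in KO, 0.237 to 0.248 in E13 Het and 0.0378 to 0.0961 in E9 Het epidermis, and 0.956 to 0.989 in dermis. KO libraries lay above Het libraries at E13 for this ratio without overlap, as also for Smarca1 over Smarca5 and Cbx6 over Cbx2 below. How often ratios of other gene pairs lie apart was not computed, so no effect of the knockout is read from this. None of the genes in these pairs was called in KO against Het epidermis. Smarcc2 over Smarcc1 was 0.326 to 0.350 in KO, 0.338 to 0.389 in E13 Het and 0.144 to 0.200 in E9 Het epidermis, and 0.803 to 0.945 in dermis. Smarca1 over Smarca5 was 0.233 to 0.254 in KO, 0.127 to 0.171 in E13 Het and 0.0950 to 0.138 in E9 Het epidermis, and 0.464 to 0.544 in dermis. In this pair the E13 Het and E9 Het libraries overlapped and the KO libraries lay above both. Cbx6 over Cbx2 was 1.78 to 2.58 in KO, 1.21 to 1.74 in E13 Het and 0.121 to 0.376 in E9 Het epidermis, and 5.26 to 6.02 in dermis. The ratio Hdac2 over Hdac1 was 1.04 to 1.21 in KO, 1.17 to 1.37 in E13 Het and 0.622 to 0.720 in E9 Het epidermis, and 1.14 to 1.59 in dermis. Ezh1 over Ezh2 overlapped between all 3 epidermal groups, at 0.232 to 0.394, 0.181 to 0.442 and 0.180 to 0.235 in KO, E13 Het and E9 Het epidermis, and was 0.140 to 0.166 in dermis.

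**Figure D4:**
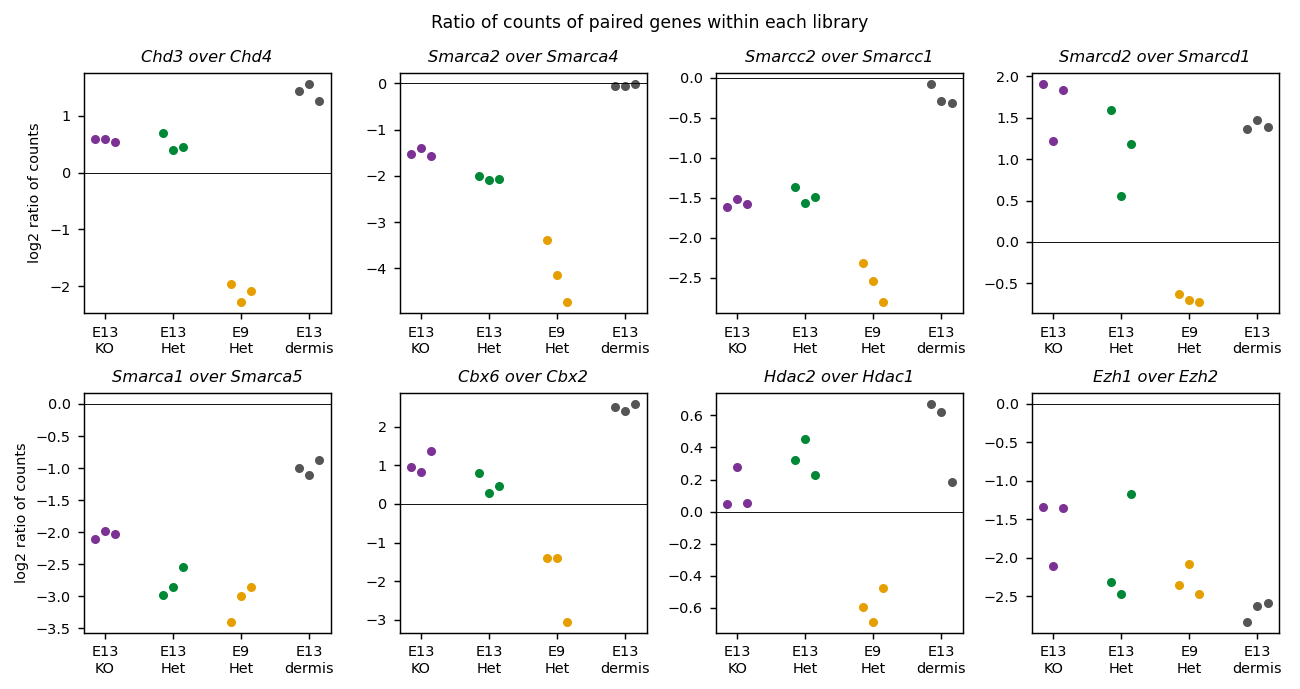
Log2 of the ratio of counts of 8 gene pairs within each library (points), for E13 KO, E13 Het and E9 Het epidermis and E13 Het dermis. The line marks equal counts; for Chd3 over Chd4 and Smarcd2 over Smarcd1 only the E9 libraries lie below it.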

How the data were processed

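Gene counts were analysed for 12 RNA libraries, 9 from epidermis and 3 from dermis. The authors deposited raw HTSeq counts per gene symbol; per the submitters' processing notes, the build is mm10 and the tools listed are HTSeq, Bowtie2 and TopHat2. Versions and the strand setting of the counting are not given in the sources used here. Counts in the 5 HTSeq summary lines (48.8% to 63.8% of all counts in epidermal and 20.2% to 21.6% in dermal libraries) were left out. Chromatin accessibility and ChIP libraries of the series were not analysed here.

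Counts were tested with edgeR 4.0.16 in R 4.3.3: filterByExpr with a minimum count of 10, TMM scaling, the robust quasi-likelihood F test and Benjamini-Hochberg adjustment over all genes tested. The 9 epidermal libraries shared 1 fit (13052 genes, 6 residual degrees of freedom). E13 Het epidermis and dermis had their own (12975 genes, 4 residual degrees of freedom). Standard errors were taken from the F statistic and intervals from the t distribution. The tests were checked on simulated counts. Libraries of a group differed by more than sampling noise. With 3 libraries a group and a common biological coefficient of variation of 0.571 in epidermis and 0.506 in the dermal comparison, small changes were not resolved.

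The genes and gene lists were chosen with earlier results of these data known. Values per library are given for each of the 45 genes called in an epidermal comparison, for up to 8 with the smallest adjusted p against dermis, and for the gene with the smallest p of each complex in KO against Het where none was called. Of the further genes, up to 3 called genes per comparison are given. The values of 1 of them are not reported here. Mta2, Smarca4 and others not called are named to account for their complex. Alternatives were other scalings, no filter, DESeq2 1.42.0, other sets of libraries, the replicate number as a block, and each library left out. Leaving out the 2 epidermal libraries with the fewest genes detected was added after seeing the data.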

Additional observations from a re-analysis of the deposited data

How the results depend on the processing

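No call among the 45 genes changed direction under any alternative run. Of the genes not called, some did. This was counted over the 45 genes and 4 comparisons, leaving aside the fits that left out 1 library. There 33 of 1209 values changed sign, 6 of them without scaling and 13 with the replicate number as a block. Another 10 did so without the 2 libraries with the fewest genes detected. In KO against Het epidermis without scaling, Ezh2 had a log2 fold change of 0.02, against -0.05 with it, and Hdac3 0.005, against -0.05. In KO against Het epidermis the count of the 45 genes called was 1, and it was 2 without a filter on low counts, 2 with DESeq2, 0 in a fit of only the 6 libraries compared, and 0 to 1 with each library left out in turn. Over all genes that comparison gave 287 calls, 656 with DESeq2 and 182 to 348 with a library left out. In Het epidermis at E13 against E9, all genes gave 952 calls, 1667 with DESeq2 and 569 to 812 with a library left out, and the 45 genes 8 to 10. In KO epidermis at E13 against Het epidermis at E9, all genes gave 1001 calls, 1820 with DESeq2 and 557 to 815 with a library left out, and the 45 genes 8 to 12. Against dermis a library left out gave 2934 to 5269 calls over all genes and 16 to 24 among the 44 tested. The causes of these moves were not tested.

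Deviations from group means of same-numbered libraries correlated at -0.053 to 0.234, against -0.152 to 0.127 for libraries of other numbers. The highest value was that of replicate 2 of KO and of E13 Het epidermis. With 3 libraries a group, these values cannot settle whether the numbers pair the libraries. With the replicate number as a block, 1, 8, 8 and 23 of the genes were called in KO against Het, Het against E9, KO against E9 and epidermis against dermis, and 286, 576, 540 and 3464 over all genes. E9 Het replicate 4 shared its number with no other epidermal library, so under the block it added nothing to the comparisons with E9. The block values against E9, sign changes included, therefore do not show the block alone.

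The 53 values followed by gene are every call among the 45 genes in the 4 comparisons and the KO against Het values of Mta2, Smarca1, Arid1b, Cbx2 and Satb1. Of these, 52 stayed on their side of the threshold with DESeq2, which also called Chd9, Hdac2 and Hdac9 in Het against E9, Hdac5 and Mta1 in KO against E9 and Chd3 against dermis. Of the 53, 51 stayed without a filter, 51 with median-of-ratios size factors, 47 without scaling and 43 with the block. Without the 2 libraries with the fewest genes detected, 1, 11 and 15 of the 45 genes were called in the 3 epidermal comparisons. Cbx7, Cbx8 and Ring1 had 0 to 114 counts in each epidermal library, and their standard errors were wide.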
